A study of Mus musculus with 6 samples.

Results

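Knockdown of the condensin II subunit CAPH2 with 2 different hairpins was compared with a control hairpin against GFP, to ask which transcripts differed from the control in the same direction with both hairpins. The comparison used 3 of the 6 RNA-seq libraries of the series, 1 for the GFP hairpin and 1 for each CAPH2 hairpin, called CAPH2 #1 and CAPH2 #2 here. The members were the genes with at least 50 read counts in at least 1 of these 3 libraries, which held for 12588 of 21172 genes, 12246 with a coding and 342 with a noncoding transcript. A rare gene could thus be kept only through the library where it was highest. The other 3 libraries, from cells with 2 hairpins against SMC2 and 1 against SMC1, served for the estimate of spread and for comparison.

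All libraries came from V6.5 murine embryonic stem cells (ESCs), a C57BL/6-129 line kept on irradiated mouse embryonic fibroblasts and passaged once off these feeders onto gelatin. Cells were infected with lentivirus encoding a single short hairpin RNA (shRNA) 24 hr after plating, selected with puromycin from 24 hr later, and harvested 96 hr post selection. The GFP hairpin cells went through the same infection and selection, so every group compared here had been infected and selected. RNA of 652000 cells per library received 1.42 µl of a diluted ERCC mix, a set of synthetic RNAs added in a fixed amount. No condition had a repeat of the same hairpin, so the spread between CAPH2 #1 and CAPH2 #2 joins hairpin and culture.

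Condensin complexes are ring-shaped ATPases that fold chromosomes. Condensin I and condensin II share the SMC2 and SMC4 arms and differ in their non-SMC subunits, with CAPH2 as the kleisin that closes the condensin II ring. Condensin II stays in the nucleus through interphase, whereas condensin I meets the chromosomes after the nuclear envelope breaks down.

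The target transcript was lower with both hairpins. Ncaph2 (NM_001115132, mm9 chr15:89186153-89203259, plus strand) stood at 80.2 reads per kilobase of exon, scaled to the mapped reads of the library (RPKM) in the GFP library, at 16.9 RPKM with CAPH2 #1 and at 27.9 RPKM with CAPH2 #2. The level left was 21.0% of GFP with CAPH2 #1 with an exact 95% binomial interval from 19.8% to 22.3%. It was 34.8% with CAPH2 #2, with an interval from 33.0% to 36.7%. Both cover counting error only. The intervals did not overlap, so CAPH2 #1 left less of the target on the RPKM scale, although scaling to the ERCC counts gave 32.6% and 33.7%. The SMC2 libraries held 63.9 and 64.9 RPKM and the SMC1 library 53.98 RPKM, between the control and the CAPH2 levels. Ncaph2 fell by 1.84 ± 0.21 (SE) on the log2 scale in edgeR's quasi-likelihood test (adjusted p = 0.0233).

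Transcripts of both SMC arms were higher than in the control. Smc2, the ATPase arm of either complex (NM_008017, mm9 chr4:52452121-52501131), was at 26.6 RPKM with GFP, 42.3 RPKM with CAPH2 #1 and 40.6 RPKM with CAPH2 #2. The SMC1 library was level with them at 41.9 RPKM, and the SMC2 libraries held 18.8 and 19.14 RPKM. The rise of Smc2 was 0.65 ± 0.08 (log2, adjusted p = 0.0233). Smc4, its partner, rose from 47.4 RPKM to 63.8 and 63.0 RPKM (0.43 ± 0.07, adjusted p = 0.0261).

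Among the non-SMC subunits other than Ncaph2, the HEAT repeat proteins of the G type rose and the remainder did not pass the test. Ncapg2 of condensin II went from 10.2 RPKM to 13.7 and 12.9 RPKM (adjusted p = 0.0368), and Ncapg of condensin I from 33.2 RPKM to 43.8 and 40.9 RPKM (adjusted p = 0.0383). Ncapd3 of condensin II was at 18.9 RPKM with GFP and at 21.0 and 22.7 RPKM with the hairpins. Ncaph, the condensin I kleisin, was at 51.6 RPKM against 46.2 and 47.1 RPKM. Ncapd2, its HEAT repeat partner, was at 133.9 RPKM against 108 and 120.4 RPKM. Mcph1, which restrains condensin II in interphase, was at 17.3 RPKM against 16.9 and 16.5 RPKM. Of the 9 genes, 4 rose and Ncaph2 fell. After an adjustment for the GC content of transcripts, described below, the log2 change of Smc2 was 0.37 and 0.34, that of Smc4 0.13 and 0.14, and that of Ncapg 0.10 and 0.03.

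**Figure D1:**
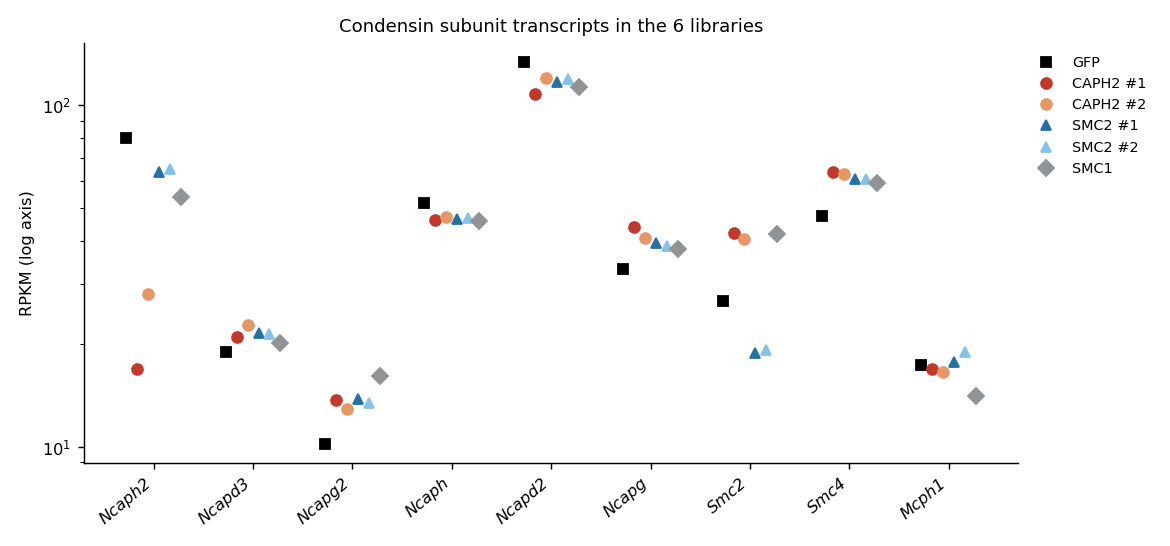
RPKM (log axis) of the condensin subunits and Mcph1 in each of the 6 libraries, 1 point per library. Ncaph2 is lowest in the 2 CAPH2 libraries (16.9 and 27.9 RPKM), and Smc2 is lowest in the 2 SMC2 libraries (18.8 and 19.14 RPKM).

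Across all members, most genes moved little and the 2 hairpins often moved the same way. Both hairpins were above GFP for 5157 genes (41% of those kept) and below it for 5378 genes (42.7%), and 2053 genes lay on different sides. The median absolute log2 change was 0.22 with CAPH2 #1 and 0.17 with CAPH2 #2. A change of at least 1.5-fold was seen for 812 genes upward (6.45%) and 753 downward (5.98%) with CAPH2 #1, and for 402 (3.19%) and 321 (2.55%) with CAPH2 #2. With both hairpins, 325 genes were at least 1.5-fold higher (2.58%), 245 at least 1.5-fold lower (1.95%) and 1 went opposite ways. Because both ratios have the same GFP library below the line, an unusual GFP value moves them together. The GFP library was the lowest of all 6 for 306 of the 325 genes (28.2% of all genes kept) and the highest of all 6 for 229 of the 245 (31.2% of all).

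The edgeR test placed 671 genes higher (5.33% of those tested) and 411 lower (3.27%) at an adjusted p under 0.05. Of the genes past 1.5-fold with both hairpins, 183 of 325 and 120 of 245 passed it as well. The change was larger with CAPH2 #1 for 464 of the 570 genes, and for 8414 of all 12588 genes kept. The test had 2 residual degrees of freedom, from the CAPH2 and SMC2 pairs, and assumed that the lone GFP library varied like them, so its p-values measure only the spread between these libraries. With the 3 libraries of GFP and CAPH2 alone it called 0 genes in either direction (1839 higher and 1536 lower at an unadjusted p under 0.05).

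The direction of change followed the base composition of the transcript. Over 12043 coding genes, Spearman's rho between GC content and the log2 change was -0.46 with CAPH2 #1 and -0.53 with CAPH2 #2, and between -0.29 and -0.50 in the other knockdown libraries. These are correlations across genes, and all the ratios share the GFP library. Among 1079 genes under 42% GC the median log2 change was 0.28 with CAPH2 #1 and 0.25 with CAPH2 #2, and 24.2% of them rose in the test. Among 3966 genes at 54% GC or more the medians were -0.17 and -0.15, and 7.19% fell. Long genes lay on the higher side too. Of 467 genes that span 200 kb or more, 10.1% were at least 1.5-fold higher with both hairpins, against 1.503% of those under 10 kb.

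An adjustment chosen after seeing the data subtracted, in each library, the median change of genes of like GC content. It left 239 genes at least 1.5-fold higher (1.97% of 12144) and 123 lower (1.01%) with both hairpins, of which 192 and 107 had been so before it. In edgeR the adjustment came from each library's departure from the mean of all 6 libraries, within the same GC bins. With it edgeR called 0 genes higher and 0 lower (1387 and 1296 at an unadjusted p under 0.05), and the smallest adjusted p was 0.0537, that of Ncaph2 included. "Rose" and "fell" in the following refer to the test without this adjustment, and each gene list below is given with its adjusted medians. List counts are to be read beside the shares over all genes, of which 5.33% rose and 3.27% fell. With both hairpins, 2.58% were at least 1.5-fold higher and 1.95% lower, and 41% lay above GFP and 42.7% below it. The part of base composition in any one change was not tested.

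**Figure D2:**
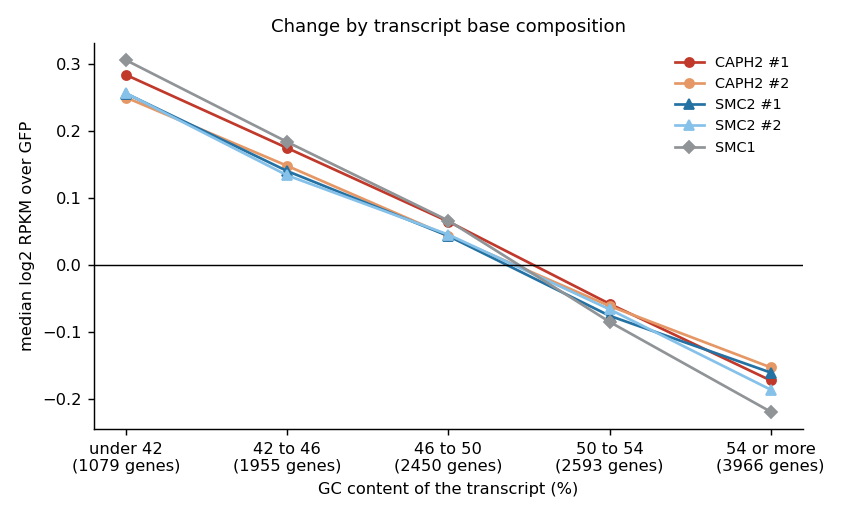
Median log2 RPKM over GFP of coding genes in 5 bins of transcript GC content (x axis, percent, with the number of genes per bin), 1 line per knockdown library. In the CAPH2 libraries the medians go from 0.28 and 0.25 under 42% GC to -0.17 and -0.15 at 54% or more, and the SMC2 and SMC1 lines slope the same way.

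All changes are relative to the median gene, because the libraries were scaled to their own mapped reads. The share of reads from the ERCC RNAs was 1.72% with GFP, 1.11% with CAPH2 #1 and 1.77% with CAPH2 #2, of 25467427 to 31337313 counts per library. Scaling to the ERCC counts moved the median of all genes to 0.64 with CAPH2 #1 and to -0.06 with CAPH2 #2 (log2), so the 2 hairpins stood apart in their RNA relative to the spike-ins. In these bulk samples, fewer cells of a type and less RNA per cell cannot be told apart. The libraries held stem cell RNA by their markers. Pou5f1, Sox2, Nanog, Zfp42, Esrrb and Dppa5a summed to 2588 RPKM with GFP, 2176 with CAPH2 #1 and 2274 with CAPH2 #2. The feeder-type fibroblast markers (10 genes) summed to 51.4 RPKM with GFP, 78.7 RPKM with CAPH2 #1 and 56.8 RPKM with CAPH2 #2. Of these 10, 8 were above GFP with each hairpin. Lum had 1 count with GFP and 0 with either hairpin, and Lum, Dcn and Twist2 did not reach the count filter.

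Genes that respond to low oxygen had the lowest medians among the lists with more than 4 genes kept. Hypoxia-inducible factors (HIF) are held down in oxygen by prolyl hydroxylases and, when stable, bind DNA at a core of A or G followed by CGTG in front of genes for glucose uptake, glycolysis and mitophagy. All 28 genes of the list were kept. Of these, 25 were lower than GFP with both hairpins and 2 higher, 9 were at least 1.5-fold lower with both, and 8 fell in the test. The median log2 change was -0.73 with CAPH2 #1 and -0.39 with CAPH2 #2, beside 0.01 and -0.02 over all genes kept. With CAPH2 #1, 24 of the 28 passed 1.5-fold downward, and with CAPH2 #2 9 did. After the GC adjustment the medians were -0.77 and -0.41.

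The promoters of 4 of the genes are shown because they hold ACGTG, 1 of the 2 forms of the HIF core. The other form, GCGTG, was not searched for and is not marked. They were taken in order of the smaller hairpin change among members at least 1.5-fold lower with both hairpins. Ndufa4l2, Adm and Aldoc, whose smaller change exceeds that of Bnip3, are not shown, since no match or no promoter sequence was found for them. Each line gives 250 bases upstream of the RefSeq start on GRCm38.p6, a later build than the mm9 of the deposited values, written 5′ to 3′ on the strand of the gene, with each match to ACGTG on either strand in capitals (CACGT where the match is on the opposite strand, and the 2 overlap as CACGTG in Bnip3).
Egln3 promoter, chr12:54203875-54204124, minus strand: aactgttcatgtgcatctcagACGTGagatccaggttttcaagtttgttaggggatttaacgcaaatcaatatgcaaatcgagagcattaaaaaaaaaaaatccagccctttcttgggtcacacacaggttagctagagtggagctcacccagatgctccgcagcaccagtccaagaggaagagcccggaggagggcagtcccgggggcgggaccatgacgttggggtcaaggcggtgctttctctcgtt
Bnip3 promoter, chr7:138909507-138909756, minus strand: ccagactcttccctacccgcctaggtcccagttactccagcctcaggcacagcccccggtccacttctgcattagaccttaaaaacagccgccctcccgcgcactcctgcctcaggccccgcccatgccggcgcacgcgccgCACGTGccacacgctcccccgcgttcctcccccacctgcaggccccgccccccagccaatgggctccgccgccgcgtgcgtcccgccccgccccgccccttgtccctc
Egln1 promoter, chr8:124949255-124949504, minus strand: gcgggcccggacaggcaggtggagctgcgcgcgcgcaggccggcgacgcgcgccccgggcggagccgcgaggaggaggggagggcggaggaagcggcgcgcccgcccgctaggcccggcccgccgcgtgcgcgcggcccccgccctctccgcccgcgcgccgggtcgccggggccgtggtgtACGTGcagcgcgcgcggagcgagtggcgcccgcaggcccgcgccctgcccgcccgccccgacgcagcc
Ankrd37 promoter, chr8:45999851-46000100, minus strand: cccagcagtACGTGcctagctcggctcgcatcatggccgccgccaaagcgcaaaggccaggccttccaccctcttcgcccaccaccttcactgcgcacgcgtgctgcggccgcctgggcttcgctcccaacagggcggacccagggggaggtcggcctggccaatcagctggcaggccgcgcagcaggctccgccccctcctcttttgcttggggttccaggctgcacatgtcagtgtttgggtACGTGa
The letters ACGTG, on either strand, were found in 14 of 26 list members that had a promoter sequence (53.8%), and in 2544 of the 9958 kept genes with one (25.5%). The list gathers known hypoxia response and glycolysis genes, so this share bears on how the list was chosen and not on the knockdown. A match is a run of letters, and binding was not measured in these libraries.

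The 4 genes of these promoters had been picked for being lower with both hairpins. Egln3, an HIF prolyl hydroxylase that is itself induced by HIF (mm9 chr12:55279969-55304861), stood at 48.5 RPKM with GFP, 12.2 RPKM with CAPH2 #1 and 25.3 RPKM with CAPH2 #2. The SMC2 libraries held 12.8 and 22.1 RPKM and the SMC1 library 7.49 RPKM, so the control was the highest of the 6. Its log2 change was -1.37 ± 0.37 and did not pass the test (adjusted p = 0.0560). Egln1, the main HIF prolyl hydroxylase, fell from 34.1 RPKM to 14.8 and 21.1 RPKM (adjusted p = 0.0313). Bnip3, a mitophagy receptor, was at 17.1 RPKM against 4.86 and 10.4 RPKM (adjusted p = 0.0770). Ankrd37, an ankyrin repeat protein, was at 23.0 RPKM against 6.88 and 14.3 RPKM (adjusted p = 0.0753). For all 4, CAPH2 #1 lay below CAPH2 #2 and both lay below GFP, and 1 of the 4 passed the test.

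The largest difference in the list was that of Ndufa4l2, a mitochondrial protein induced by HIF (NM_001098789, mm9 chr10:126951995-126954210). It was at 29.3 RPKM with GFP, 5.79 RPKM with CAPH2 #1 and 14.7 RPKM with CAPH2 #2 (log2 change -1.53 ± 0.45, adjusted p = 0.0683). Nxph4, close by on chromosome 10 (mm9 chr10:126962529-126971615, minus strand), fell from 6.24 RPKM to 1.74 and 2.79 RPKM (adjusted p = 0.0313). In glycolysis and glucose uptake, the glucose transporter Slc2a1 fell from 563 RPKM to 289 and 373 RPKM (adjusted p = 0.0351). Slc2a3, a second transporter and the more abundant of the pair, was at 758.1 RPKM against 473.8 and 615.8 RPKM and did not pass (adjusted p = 0.0874). Hk1, a hexokinase, fell from 22.3 RPKM to 13.3 and 14.7 RPKM (adjusted p = 0.0251). Aldoa, Eno1, P4ha1, Mxi1 and Higd1a fell as well, with adjusted p between 0.0331 and 0.0499. Aldoc, an aldolase, was at 32.8 RPKM against 10.0 and 19.6 RPKM without passing (adjusted p = 0.0553). The members that were not lower were Kdm3a, at 40.6 RPKM against 43.6 and 43.5 RPKM, and Car9, at 1.07 RPKM against 1.16 and 1.08 RPKM. Gapdh, with 2.49 RPKM in the control, has many processed copies in the genome, and reads with more than 2 places were discarded, so its value is uncertain.

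The SMC2 libraries had list medians of -0.72 and -0.46 and the SMC1 library -0.86, and GFP was the highest of the 6 libraries for 25 of the 28 genes.

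Sterol genes were the second group that was lower as a whole. Cells make cholesterol from acetyl-CoA through mevalonate and squalene, under the SREBP2 transcription factor that INSIG1 retains in the endoplasmic reticulum. Of 24 genes kept, 23 were lower than GFP with both hairpins and 7 fell in the test. No gene passed 1.5-fold with both hairpins, since 13 did so with CAPH2 #1 and 0 with CAPH2 #2. The median log2 change was -0.63 with CAPH2 #1 and -0.29 with CAPH2 #2, and -0.59 and -0.33 after the GC adjustment.

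The members that fell cover the early and late steps of the pathway. Insig1 (mm9 chr5:28397952-28405202) was at 94.3 RPKM with GFP, 44.5 RPKM with CAPH2 #1 and 64.7 RPKM with CAPH2 #2 (log2 change -0.78 ± 0.17, adjusted p = 0.0366). Mvd, which makes isopentenyl diphosphate, fell from 58.9 RPKM to 31.5 and 39.8 RPKM (-0.72 ± 0.13, adjusted p = 0.0281). Mvk and Pmvk, the kinases before it, fell from 27.8 RPKM to 19.4 and 20.8 RPKM and from 60.3 RPKM to 39.2 and 43.5 RPKM. The squalene synthase Fdft1 fell from 68.0 RPKM to 40.4 and 50.5 RPKM, and Lss, which closes the sterol rings, from 37.4 RPKM to 23.3 and 28.6 RPKM. Dhcr7, the last reductase, fell from 52.7 RPKM to 29.3 and 37.1 RPKM (-0.66 ± 0.13, adjusted p = 0.0302). In each of these the 2 CAPH2 values lay below GFP and CAPH2 #1 was the lower of the pair. The exception in the list was Ebp, a sterol isomerase, at 18.4 RPKM against 19.7 and 18.3 RPKM. The SMC2 libraries had medians of -0.37 and -0.34.

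**Figure D3:**
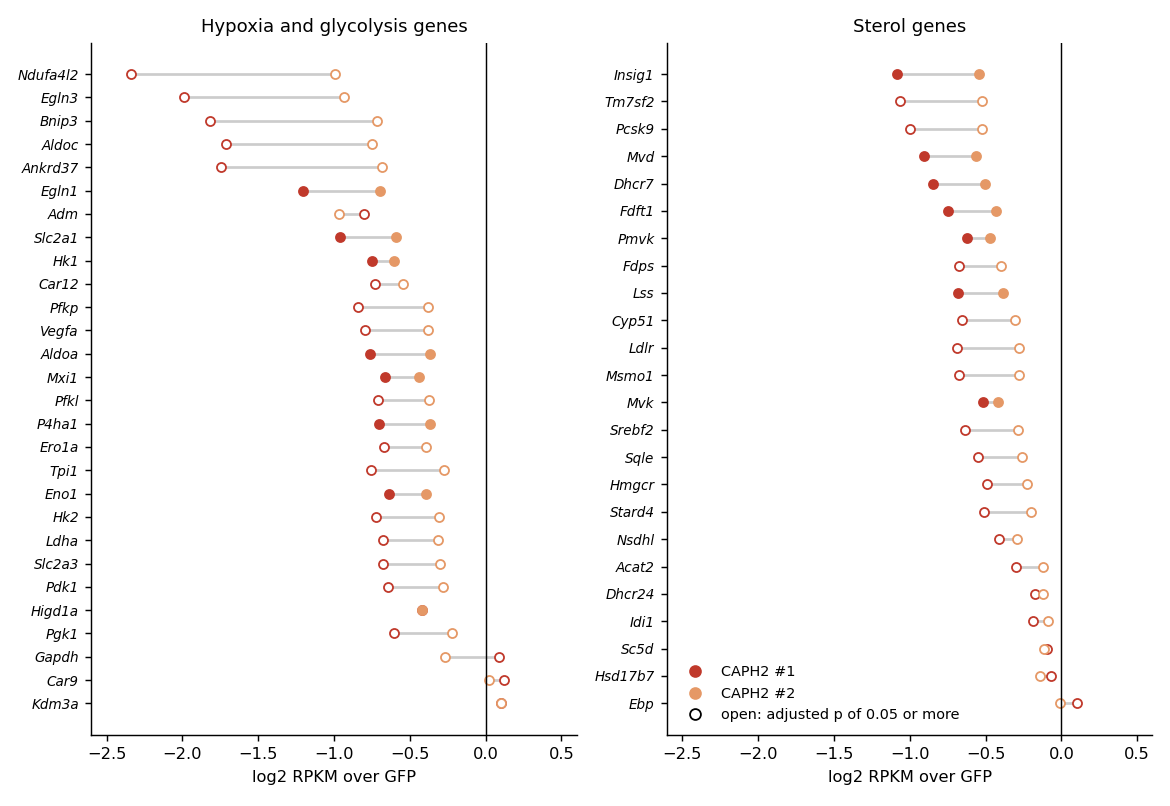
log2 RPKM over GFP of each hypoxia and glycolysis gene (left, 28 genes) and each sterol gene (right, 24 genes), with CAPH2 #1 in red and CAPH2 #2 in orange, and filled points for genes with an adjusted p under 0.05. Of the points, 25 pairs on the left and 23 on the right lie below 0 with both hairpins, and CAPH2 #1 is usually the further from 0.

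On the higher side, ligands and targets of canonical Wnt signaling stood out by single genes. In this pathway secreted Wnt proteins bind Frizzled and LRP5/6, β-catenin accumulates, and TCF-bound targets such as Axin2 and Sp5 are transcribed. In ESCs Wnt signaling supports self-renewal and, with Nodal, turns on genes of the primitive streak. Of 18 list members, 11 were higher with both hairpins and 5 lower, 5 were at least 1.5-fold higher with both, and 5 rose in the test. Over all genes kept, 41% were higher with both, 42.7% lower, 2.58% at least 1.5-fold higher with both, and 5.33% rose. The medians were only 0.13 and 0.06, and 0.25 and 0.16 after the GC adjustment. Dkk1, among the 5 past 1.5-fold, passed the count filter only through the CAPH2 libraries, with 28 counts in the GFP library. Wnt6 passed only through CAPH2 #1, with 42 counts with GFP. Passing through the group where they were high adds to the counts and medians of this list.

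Among the ligands, Wnt3 (mm9 chr11:103635489-103679335), which starts the primitive streak in the embryo, was at 1.82 RPKM with GFP, 5.42 RPKM with CAPH2 #1 and 4.03 RPKM with CAPH2 #2. It rose by 1.39 ± 0.22 on the log2 scale (adjusted p = 0.0251). Wnt8a (mm9 chr18:34701982-34707715), found by rank rather than by the list, was at 1.83 RPKM with GFP and at 8.55 and 5.46 RPKM with the hairpins (1.95 ± 0.31, adjusted p = 0.0251). Both were also higher in the SMC2 libraries, at 3.25 and 2.99 RPKM for Wnt3 and at 3.97 and 4.48 RPKM for Wnt8a, and in the SMC1 library, at 6.83 and 8.25 RPKM. GFP was the lowest of the 6 for both ligands.

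A co-receptor and several targets of the pathway rose as well. Lrp6, a co-receptor, rose from 8.19 RPKM to 11.8 and 12.4 RPKM (adjusted p = 0.0281). Axin2, the feedback inhibitor, rose from 4.23 RPKM to 6.80 and 6.91 RPKM (0.70 ± 0.11, adjusted p = 0.0251). Sp5, a zinc finger factor downstream of β-catenin, rose from 3.35 RPKM to 6.54 and 5.88 RPKM (0.90 ± 0.16, adjusted p = 0.0281). Cdx1, a caudal homeobox gene, rose from 1.75 RPKM to 3.92 and 3.10 RPKM (1.02 ± 0.25, adjusted p = 0.0447). Dkk1, a secreted Wnt antagonist, was at 0.582 RPKM against 1.23 and 1.59 RPKM and did not pass (adjusted p = 0.0618). It had 28 counts with GFP against 64 and 67. Other members were lower with both hairpins without passing the test. The Frizzled receptors Fzd5 and Fzd7 were at 30.3 RPKM against 25.0 and 29.4 RPKM and at 47.9 RPKM against 40.1 and 44.0 RPKM. The target Nkd1 was at 1.40 RPKM against 1.30 and 1.16 RPKM, and the TCF family member Tcf7 at 47.0 RPKM against 37.9 and 42.3 RPKM.

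The mesendoderm list (9 of 12 genes kept) shares Wnt3 with the Wnt list. T (Brachyury), the T-box factor of the primitive streak (mm9 chr17:8627288-8635361), was at 6.93 RPKM with GFP, 13.3 RPKM with CAPH2 #1 and 15.2 RPKM with CAPH2 #2, a rise of 1.05 ± 0.15 (log2, adjusted p = 0.0242). The SMC2 libraries held 10.2 and 8.84 RPKM and the SMC1 library 16.4 RPKM. Besides T and Wnt3 no member passed the test. Evx1, a homeobox gene of the posterior streak, was at 0.614 RPKM against 0.864 and 1.29 RPKM, and Fgf8 at 19.6 RPKM against 22.8 and 26.3 RPKM. Evx1 and Mixl1, with 38 and 44 counts in the GFP library, passed the count filter only through the CAPH2 libraries. The 2 hairpins went opposite ways for Mesp1 and Lhx1, with 2.85 RPKM against 1.43 and 3.16 RPKM and with 1.72 RPKM against 1.15 and 2.63 RPKM. Gsc, an organizer gene, was lower with both, at 2.81 RPKM against 1.64 and 2.31 RPKM. The list medians were 0.21 and 0.57, and 0.16 and 0.65 after the GC adjustment, against -0.09 and -0.08 in the SMC2 libraries. These medians include Evx1 and Mixl1, and Mixl1 itself is the CAPH2 #2 median of 0.57. Passing the filter through the group where these genes were high adds to the CAPH2 medians, so the contrast with SMC2 depends on them in part.

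BMP receptors and their Id targets followed. BMP signals through type I and type II receptors to SMAD1/5, and the Id proteins it induces hold back differentiation of ESCs. Of 12 genes kept of 13, 8 were higher with both hairpins and 3 lower, and 4 rose (medians 0.40 and 0.28, and 0.30 and 0.17 after the GC adjustment). Id3 rose from 26.8 RPKM to 57.0 and 41.8 RPKM (0.90 ± 0.19, adjusted p = 0.0345), and Id1 from 62.1 RPKM to 88.3 and 76.7 RPKM (adjusted p = 0.0480). The type II receptor Bmpr2 rose from 2.98 RPKM to 5.501 and 5.33 RPKM (0.87 ± 0.14, adjusted p = 0.0251), and the type I receptor Bmpr1a from 18.8 RPKM to 25.7 and 25.4 RPKM (adjusted p = 0.0266). Of the ligands, Bmp4 was at 6.64 RPKM against 9.16 and 9.12 RPKM and Bmp7 at 5.72 RPKM against 4.01 and 3.59 RPKM, neither past the test.

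In the FGF and ERK list, some feedback genes rose and the ligand Fgf4 fell. FGF4 is the autocrine signal that primes ESCs to differentiate through ERK, and DUSP, SPRED and SPRY proteins damp that signal. Of 13 genes, 10 were higher with both hairpins, 3 lower, 3 rose and 1 fell (medians 0.30 and 0.24, and 0.31 and 0.25 after the GC adjustment). The shares over all genes were 41%, 42.7%, 5.33% and 3.27%. Dusp6, an ERK phosphatase, rose from 22.6 RPKM to 38.9 and 33.7 RPKM (0.69 ± 0.11, adjusted p = 0.0251). Spred1 rose from 24.7 RPKM to 36.3 and 34.3 RPKM and Etv5, an ETS factor induced by ERK, from 55.7 RPKM to 70.3 and 71.1 RPKM. The other feedback genes did not pass, with Spry2 at 56.7 RPKM against 71.4 and 67.0 RPKM and Spry1 lower with both hairpins, at 11.999 RPKM against 8.80 and 11.7 RPKM. Fgf4 itself fell from 178 RPKM to 106 and 126 RPKM (-0.61 ± 0.12, adjusted p = 0.0281).

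Primitive endoderm genes are those of the extraembryonic layer that forms beside the epiblast. Only 10 of the 19 in the list passed the count filter, so the list is described by these. Cubn, Sox7 and Thbd passed it only through the CAPH2 libraries, with 44, 46 and 41 counts in the GFP library. Passing through the group where they were high adds to the counts and medians given here. Amn passed only through the GFP library, with 53 counts against 42 and 43. Of the 10, 8 were higher with both hairpins, 1 lower, and 4 rose (medians 0.65 and 0.47, and 0.49 and 0.44 after the GC adjustment). Cubn, an endocytic receptor (mm9 chr2:13197965-13413503), rose from 0.181 RPKM to 0.534 and 0.558 RPKM (1.60 ± 0.28, adjusted p = 0.0275). These levels rest on 44, 141 and 119 counts. Its partner Lrp2 rose from 6.55 RPKM to 9.09 and 8.24 RPKM (adjusted p = 0.0477) and the adaptor Dab2 from 2.03 RPKM to 3.67 and 3.14 RPKM (adjusted p = 0.0383). Fst, an activin antagonist, rose from 3.64 RPKM to 8.93 and 6.39 RPKM (1.09 ± 0.21, adjusted p = 0.0293). In the SMC1 library Lrp2 reached 60.4 RPKM, well beyond either CAPH2 value.

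**Figure D4:**
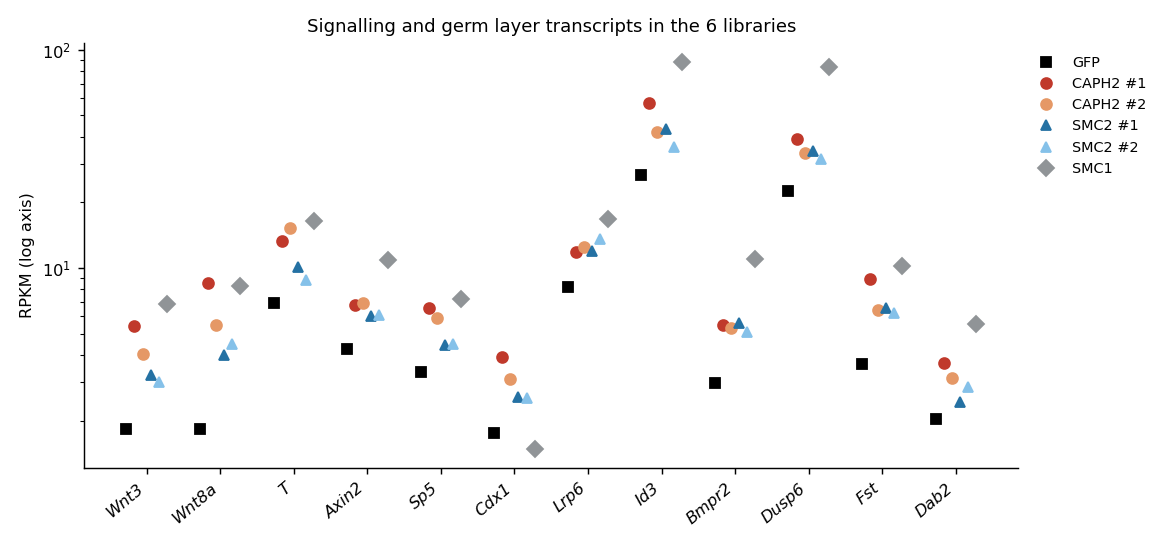
RPKM (log axis) of 12 genes of Wnt, BMP and ERK signaling and of the mesendoderm and primitive endoderm in each of the 6 libraries, 1 point per library. The 12 were picked among genes that were higher with both hairpins, so both CAPH2 points lie above the GFP point, for example 13.3 and 15.2 against 6.93 RPKM for T. Members of the same lists that were lower with both hairpins, among them Fzd5, Fzd7, Tcf7, Nkd1, Bmp7, Fgf4, Spry1 and Gsc, are not shown.

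Genes of cell adhesion moved in both directions. Claudins seal epithelial junctions, and ZEB factors repress epithelial genes. Of the 14 epithelial and mesenchymal genes kept, 3 rose and 2 fell, and the medians were -0.02 and -0.05, or -0.09 and -0.12 after the GC adjustment. Zeb2 rose from 0.551 RPKM to 1.61 and 1.21 RPKM (1.37 ± 0.22, adjusted p = 0.0251), Zeb1 from 4.06 RPKM to 5.56 and 5.36 RPKM (adjusted p = 0.0491) and N-cadherin (Cdh2) from 4.36 RPKM to 7.45 and 7.501 RPKM (0.79 ± 0.11, adjusted p = 0.0242). Cldn3 fell from 7.20 RPKM to 2.45 and 3.59 RPKM (-1.26 ± 0.24, adjusted p = 0.0281) and Cldn4 from 91.7 RPKM to 51.3 and 58.2 RPKM (adjusted p = 0.0295). Vim was at 215 RPKM against 316 and 258 RPKM without passing (adjusted p = 0.0622).

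The pluripotency factors differed little. Pou5f1 was at 1285 RPKM with GFP and at 1107 and 1128 RPKM with the hairpins (adjusted p = 0.1052). Sox2 was at 365 RPKM against 296 and 323 RPKM, and Nanog at 424 RPKM against 338 and 368 RPKM, neither past the test. Of 13 core genes, 8 were lower with both hairpins. Dppa5a, an RNA-binding protein of ESCs, fell from 98.7 RPKM to 68.2 and 64.5 RPKM (-0.56 ± 0.11, adjusted p = 0.0281), and L1td1, also an RNA-binding protein, rose from 174 RPKM to 264 and 232 RPKM (adjusted p = 0.0276). The core medians were -0.17 and -0.16 and, after the GC adjustment, 0.00 and 0.00. With ERCC scaling the mean log2 change over both hairpins of Pou5f1, Sox2 and Nanog was above 0, at 0.09, 0.05 and 0.03. This scaling shifted the changes by 0.63 with CAPH2 #1 and by -0.05 with CAPH2 #2 (log2). With CAPH2 #2 these factors thus stayed below GFP, and the means above 0 came from CAPH2 #1.

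Of 17 genes of the naive state, 10 were lower with both hairpins, 3 fell and 1 rose (medians -0.17 and -0.05, and -0.24 and -0.08 after the GC adjustment). Among all genes these shares were 42.7%, 3.27% and 5.33%. Klf2, a naive state factor, fell from 210 RPKM to 145 and 170 RPKM (adjusted p = 0.0457) and Pecam1 from 27.2 RPKM to 21.5 and 19.9 RPKM (adjusted p = 0.0474), beside Fgf4 above. Gbx2 rose from 28.0 RPKM to 44.7 and 39.5 RPKM (0.60 ± 0.10, adjusted p = 0.0261). In the SMC1 library Klf2 was at 25.3 RPKM and Esrrb at 21.5 RPKM, against 158 and 179 RPKM for Esrrb in the CAPH2 libraries and 210 RPKM with GFP.

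Imprinted genes, expressed from 1 parental allele, gave 6 that rose and 1 that fell of 29 kept (medians 0.09 and 0.07, and 0.14 and 0.13 over 24 genes after the GC adjustment). Zdbf2 rose from 10.7 RPKM to 19.07 and 17.1 RPKM (adjusted p = 0.0233). Plagl1, a zinc finger factor, rose from 2.47 RPKM to 4.42 and 4.40 RPKM (0.84 ± 0.12, adjusted p = 0.0242). Magel2, Peg3, Peg10 and the noncoding Rian rose as well, with Peg3 at 14.5 RPKM against 19.9 and 21.5 RPKM. Ascl2, needed for the placental trophoblast, fell from 5.74 RPKM to 2.45 and 2.34 RPKM (-1.25 ± 0.21, adjusted p = 0.0261). The alleles were not separated in these counts.

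Neural and germline genes gave 3 calls each. Of 13 neural genes kept, 3 rose, beside 5.33% of all genes tested (medians 0.22 and 0.18, and 0.21 and 0.14 after the GC adjustment). They were Nefm, Nrcam and Nes, with Nefm, a neurofilament chain, at 1.02 RPKM against 2.52 and 2.32 RPKM (adjusted p = 0.0259). Of 16 germline genes kept, 2 fell, beside 3.27% of all genes, and 1 rose (medians -0.27 and -0.21, and -0.30 and -0.31 after the GC adjustment). The piRNA pathway gene Mael fell from 9.65 RPKM to 5.24 and 5.29 RPKM (-0.86 ± 0.15, adjusted p = 0.0261) and the meiotic cohesin subunit Stag3 from 22.3 RPKM to 13.1 and 15.6 RPKM (adjusted p = 0.0281). Sycp1, a protein of the synaptonemal complex, rose from 1.04 RPKM to 1.95 and 1.76 RPKM (adjusted p = 0.0474).

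CAPH2 #1, the hairpin with less Ncaph2 left on the RPKM scale, showed most of the difference in several groups. It also had the larger change for most genes past 1.5-fold and in the hypoxia and sterol lists. The same held for 8414 of all 12588 genes kept. Of 19 p53 targets kept, 11 were at least 1.5-fold higher with CAPH2 #1 and 1 with CAPH2 #2, and the medians were 0.66 and 0.10 (0.59 and 0.13 after the GC adjustment). Plk2, a p53-induced kinase, was at 10.1 RPKM with GFP, 39.98 RPKM with CAPH2 #1 and 16.8 RPKM with CAPH2 #2 (adjusted p = 0.0566). Mdm2, which degrades p53, was at 38.9 RPKM against 85.4 and 45.3 RPKM, and the cell cycle inhibitor Cdkn1a at 49.1 RPKM against 82.2 and 51.3 RPKM. For these 2 genes CAPH2 #2 lay near the control. Trp53inp1, from 36.4 RPKM to 84.3 and 54.4 RPKM (0.94 ± 0.21, adjusted p = 0.0368), and Ccng1, from 66.9 RPKM to 138 and 92.9 RPKM (0.80 ± 0.20, adjusted p = 0.0459), rose. With 1 library per hairpin this difference between the hairpins could not be tested.

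Stroma genes behaved in a similar way. Of 17 kept of 20, 15 were higher with both hairpins, 9 were at least 1.5-fold higher with CAPH2 #1 and 2 with CAPH2 #2, and 3 rose (medians 0.65 and 0.26, and 0.69 and 0.36 after the GC adjustment). Prrx1, a mesenchymal homeobox gene, rose from 0.571 RPKM to 1.31 and 1.03 RPKM, Col1a2 from 12.3 RPKM to 22.8 and 16.7 RPKM, and Col5a1 from 7.94 RPKM to 12.7 and 10.2 RPKM, with adjusted p between 0.0392 and 0.0433. Lox, which crosslinks collagen, was at 8.84 RPKM against 28.2 and 14.2 RPKM (adjusted p = 0.0622). The summed fibroblast markers went from 51.4 RPKM to 78.7 and 56.8 RPKM, with 62.4 and 56.6 RPKM in the SMC2 libraries and 112 RPKM in the SMC1 library. All of these markers that passed the count filter are members of this list, namely Col1a1, Col1a2, Col3a1, Thy1, Postn, Prrx1 and Twist1. The markers are thus no separate measure. Their part in the change was not tested.

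Contractile genes and targets of SRF and YAP, which read out actin tension, were higher with both hairpins for 16 of 19 (medians 0.56 and 0.13, and 0.62 and 0.23 after the GC adjustment). Filip1l rose from 0.413 RPKM to 1.25 and 0.877 RPKM (1.39 ± 0.35, adjusted p = 0.0471), on 35, 115 and 65 counts. It was the only member that rose in the test and the only member at least 1.5-fold higher with both hairpins. Filip1l passed the count filter only through the CAPH2 libraries, the group where it was high, so this call says little of the list. Tagln, an actin-binding protein, was at 92.0 RPKM against 172 and 116 RPKM, and Thbs1 at 40.2 RPKM against 78.4 and 52.5 RPKM, neither past the test. Acta2 went opposite ways, at 60.2 RPKM against 97.7 and 55.1 RPKM. The same fibroblast marker sums apply beside these values.

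Most genes of cohesin and its regulators were higher. Cohesin is the related ring complex that holds sister chromatids and forms loops with CTCF. Of 15 genes, 12 were higher with both hairpins and 8 rose (medians 0.38 and 0.36, beside a median transcript GC content of 42.9%). Stag2, a core subunit, rose from 13.1 RPKM to 20.1 RPKM with either hairpin (0.63 ± 0.08, adjusted p = 0.0242). The release factor Pds5b rose from 10.9 RPKM to 15.9 and 16.1 RPKM, the loader Nipbl from 9.14 RPKM to 13.2 and 12.3 RPKM, and Smc1a from 36.1 RPKM to 46.9 and 46.2 RPKM. Stag1, Wapl, Pds5a and Esco1 rose too. Smc3 and Rad21 were at 41.0 RPKM against 47.7 and 46.1 RPKM and at 132 RPKM against 141 and 148 RPKM. After the GC adjustment the medians were 0.19 and 0.16, and in the SMC2 libraries they were 0.34 and 0.24 before it.

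Housekeeping groups had medians a little below 0. Among 82 proteins of the cytosolic ribosome 59 were lower with both hairpins and 4 fell, beside 3.27% of all genes tested (medians -0.22 and -0.19, and -0.13 and -0.14 after the GC adjustment), and many of these genes have near-identical copies that lose reads in the counting. Among 74 subunits of the respiratory chain 59 were lower with both and 2 fell, Ndufa6 and Ndufv3, which is a smaller share than the 3.27% of all genes (medians -0.16 and -0.16, and -0.10 and -0.11 after the GC adjustment). Of 21 lysosome genes 15 were lower with both (medians -0.17 and -0.19, and -0.12 and -0.08 after the GC adjustment), and among them Neu1, a sialidase, fell. Of 28 genes of amino acid supply under ATF4, 17 were lower with both (medians -0.27 and -0.10). After the GC adjustment 13 were lower with both, and the medians were -0.20 and 0.01, on different sides of 0. In this list 1 gene, Ddit4, passed 1.5-fold with both (181 RPKM against 85.4 and 111 RPKM, adjusted p = 0.0856).

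Few genes of the cell cycle and of Polycomb passed the test, beside 5.33% of all genes tested that rose and 3.27% that fell. Of 28 mitosis genes, Ect2 and Top2a rose and Ccnb2 and Cenpa fell (medians 0.08 and 0.14, and 0.00 and 0.02 after the GC adjustment). Top2a, the topoisomerase that works beside condensin on mitotic chromosomes, was at 134 RPKM with GFP and at 170 and 171 RPKM with the hairpins (adjusted p = 0.0299), and after the GC adjustment its log2 change was 0.12 and 0.19. Of 34 replication genes, Cdt1, E2f1 and Pold1 fell (medians 0.03 and -0.02, and -0.05 and -0.02 after the GC adjustment). Of 19 Polycomb genes kept, Eed, Mtf2 and Rnf2 rose (medians -0.02 and 0.04, and 0.03 and 0.02 after the GC adjustment).

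**Figure D5:**
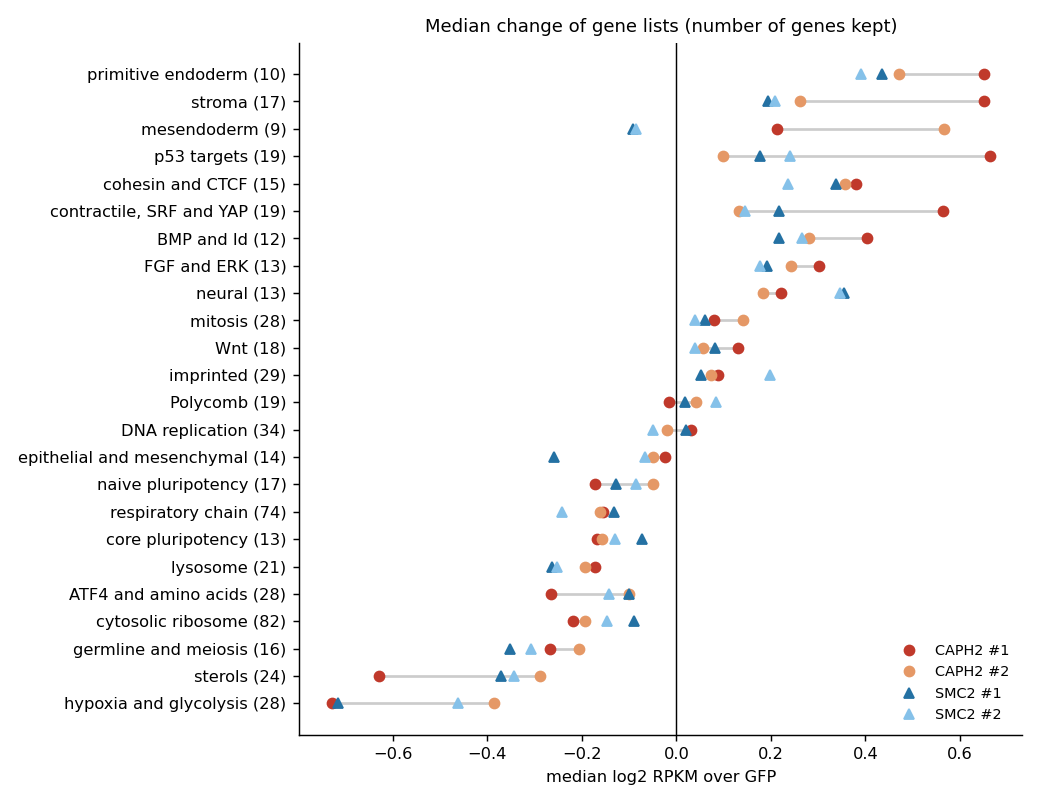
Median log2 RPKM over GFP of 24 gene lists (number of genes kept in brackets) in the 2 CAPH2 libraries (circles, joined) and the 2 SMC2 libraries (triangles). Hypoxia and glycolysis (-0.73 and -0.39) and sterols (-0.63 and -0.29) have the lowest CAPH2 medians, and primitive endoderm (0.65 and 0.47) has the highest mean of both. Of the primitive endoderm genes, Cubn, Sox7 and Thbd passed the count filter only through the CAPH2 libraries. So did Evx1 and Mixl1 of the mesendoderm list, Dkk1 and Wnt6 of the Wnt list and Filip1l of the contractile list.

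Ranked by the smaller of the 2 changes, the genes at the top of the higher side were mostly rare transcripts. Ano3, a scramblase of the anoctamin family (mm9 chr2:110498297-110790260), rose from 0.205 RPKM to 2.21 and 1.06 RPKM (3.02 ± 0.57 on the log2 scale, adjusted p = 0.0281), on 13, 152 and 59 counts. The axon guidance receptor Robo2 rose from 0.098 RPKM to 0.522 and 0.350 RPKM (adjusted p = 0.0318). Uggt2, a sensor of glycoprotein folding, rose from 0.592 RPKM to 1.56 RPKM with either hairpin (adjusted p = 0.0233). Lpar4, a receptor for lysophosphatidic acid, rose from 2.83 RPKM to 8.80 and 7.18 RPKM (1.51 ± 0.15, adjusted p = 0.0233). Also among the first 15 were Ltb4r2, Cemip, Cysltr1, Hdx, Sh2d4b, Pcdh18 and Itga1, all of which rose, and Msx1os, which did not pass (adjusted p = 0.0613). GFP was the lowest of the 6 libraries for Ano3, Robo2, Uggt2 and Lpar4. The ranking itself had set GFP below both CAPH2 libraries for these genes.

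On the lower side 2 structural RNAs came first. Rmrp, the RNA of RNase MRP, which processes ribosomal and mitochondrial RNA (NR_001460, mm9 chr4:43505657-43505931, minus strand), had 106 counts with GFP, 2 with CAPH2 #1 and 1 with CAPH2 #2. The ratio to GFP was 0.0174 (95% exact interval 0.00208 to 0.0645) and 0.0108 (0.00027 to 0.0614). Rpph1, the RNA of RNase P, which trims transfer RNA (NR_002142, mm9 chr14:51427122-51427446), had 63 counts with GFP and 6 and 5 with the hairpins, a ratio of 0.0879 (0.0311 to 0.202) and 0.0908 (0.0285 to 0.223). Both fell in the test, with an adjusted p of 0.0281 and 0.0345. Among the libraries of GFP and CAPH2, both RNAs passed the count filter only through GFP, where they were highest. The other libraries varied widely, with 39 and 151 Rmrp counts and 31 and 84 Rpph1 counts in the SMC2 libraries and 45 and 22 in the SMC1 library. Both are short transcripts without the usual poly(A) tail, and the libraries were made with a poly(A)-selecting kit. The part of that selection in these counts was not tested.

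Below these 2 and Ncaph2, the coding genes with the largest decreases were low in level. Jsrp1, a muscle membrane protein, fell from 2.77 RPKM to 0.841 and 1.00 RPKM (adjusted p = 0.0281). Cldn9, a claudin, fell from 2.56 RPKM to 1.05 and 1.11 RPKM (adjusted p = 0.0399), and Cdc42ep2, an effector of CDC42, from 4.38 RPKM to 1.11 and 1.85 RPKM (adjusted p = 0.0405). Fat2, Gabrp, Misp, Tcam1, C1qtnf4 and Atp2b2 fell too, and Tmprss13 did not pass (adjusted p = 0.0670). For Jsrp1 the SMC2 libraries, at 0.971 and 0.961 RPKM, were level with the CAPH2 libraries.

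A direct test against the SMC2 hairpins, the nearest perturbation, left 1 gene. SMC2 is shared by both condensins, so this comparison asks what differs when condensin II alone is targeted. With edgeR, 1 gene was higher with CAPH2 than with SMC2 hairpins (0.00794% of those tested) and 0 lower (0%), with 173 and 200 at an unadjusted p under 0.05. The gene was Smc2 itself, the target of the compared hairpins, higher by 1.12 ± 0.06 (log2, adjusted p = 0.000761). Ncaph2 was lower by 1.54 ± 0.19 on the log2 scale and missed the threshold (adjusted p = 0.154). Since the target of the CAPH2 hairpins itself was missed, a missing call in this test says little of other genes.

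DESeq2 called 6 genes in the same comparison, Smc2 higher and Ncaph2, Rmrp, Rpph1, Tet1 and Kmt2d lower, named after their values were seen. Tet1, a methylcytosine dioxygenase, was at 49.3 and 51.4 RPKM with the CAPH2 hairpins, 61.6 and 70.02 RPKM with the SMC2 hairpins and 46.1 RPKM with GFP. The CAPH2 libraries thus lay near the control and the SMC2 libraries above it. T was higher with CAPH2 than with SMC2 hairpins by 0.57 ± 0.11 (log2) and Wnt3 by 0.59 ± 0.16, with an adjusted p of 0.999 for both over all genes. Both CAPH2 libraries lay above all 4 other libraries for 489 genes (3.88% of those kept) and below them for 380 (3.02%). Of the genes past 1.5-fold with both hairpins, 23 of 325 and 28 of 245 did so.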

How the data were processed

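Total RNA with ERCC spike-ins was sequenced after poly(A)-selecting TruSeq RNA v2 library preparation, which does not keep strand. Per the labels and the study's methods, the authors aligned reads to mm9 with Bowtie, discarded reads with more than 2 places, and deposited, for each of 26073 RefSeq transcripts and 92 ERCC RNAs, exonic read counts and RPKM (reads per kilobase of exon, scaled to mapped reads). Reads of shared exons count for each isoform. One row per gene was used (the one with most counts over the 6 libraries), named by accession for 25353 rows and by GENCODE for 555, with 165 left unnamed. Depth was 25467427 to 31337313 counts per library, and counting intervals cover counting error only.

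The counts were tested with edgeR 4.0.16 in R 4.3.3 (TMM, quasi-likelihood test over 4 groups of 6 libraries, Benjamini-Hochberg adjustment over 12588 genes, threshold 0.05). Ratios of RPKM to GFP carry no test. In data simulated for CAPH2 against GFP over 12588 genes, the test recovered 67 of 100 genes changed 1.5-fold and 95 of 100 changed 2-fold, with 10 false calls among 172. The simulation drew all 6 libraries from the fitted spread, without the trend by GC content seen in the data. Its share of false calls therefore does not carry over to the 671 and 411 calls. Alternatives were DESeq2 1.42.0 and its size factors, ERCC scaling, a pseudocount of 1, a fold of 2, other filters, leaving out a hairpin, and the GC adjustment in 40 bins, which was chosen after seeing the data.

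Named genes were the condensin genes, the 15 largest increases and decreases by the smaller hairpin change, up to 5 members per list described with those that define it, and genes that differed from SMC2. Further members that passed the test, or went against their list, were named after their values were seen. A few genes that met the rule are not reported here. The members and all 45 lists were chosen with earlier results of these data known. The 19 lists not described had medians from -0.23 to 0.50 with CAPH2 #1 and from -0.26 to 0.34 with CAPH2 #2. The labels give lower puromycin concentrations than the study's methods, and hairpin sequences were not used here. Promoter sequences are from RefSeq on GRCm38.p6.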

Additional observations from a re-analysis of the deposited data

Results flagged for a closer look

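Smc2 differed between the CAPH2 and SMC2 knockdowns, both taken against the same GFP library. The log2 difference, CAPH2 minus SMC2, was 1.12 (edgeR, adjusted p = 0.000761), with 42.3 and 40.6 RPKM in the CAPH2 libraries, 18.8 and 19.14 RPKM in the SMC2 libraries and 26.6 RPKM with GFP. Smc2 is the target of the SMC2 hairpins.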

How the results depend on the processing

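The edgeR counts of 671 higher and 411 lower genes came to 2 and 2 with ERCC scaling, to 0 and 0 with the 3 libraries of GFP and CAPH2 alone (1839 and 1536 at an unadjusted p under 0.05), to 1055 and 1074 with no filter on counts, and to 0 and 0 with the GC adjustment. DESeq2 called 498 and 268, and edgeR with DESeq2's size factors 594 higher. Leaving out a hairpin gave 682 to 1670 higher and 364 to 1541 lower, the upper ends without CAPH2 #2. The genes past 1.5-fold with both hairpins, 325 higher and 245 lower, came to 76 and 95 with a pseudocount of 1, to 48 and 23 at a fold of 2, to 885 and 610 with no filter, to 191 higher among genes at 1 RPKM or more with GFP, to 57 lower with ERCC scaling and to 123 lower with the GC adjustment. With 1 hairpin alone they were 402 to 812 higher and 321 to 753 lower. Ncaph2 with CAPH2 #1 was at 32.6% of GFP with ERCC scaling. Against SMC2 the 1 call became 6 with DESeq2 and 8 to 222 when a CAPH2 hairpin was left out. The causes were not tested.

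Relative to the median of all genes, the replication list median turned to 5.4e-05 with TMM or ERCC scaling and lay between -0.00403 and 0.0250 with 1 hairpin alone, and the Polycomb median lay between -0.0204 and 0.0569 with 1 hairpin alone and turned to 0.0235 with the GC adjustment. With ERCC scaling the mean log2 change turned positive for Mcph1 (0.24), Ncapd2 (0.0604), Ncaph (0.15), Utf1 (0.0243), Nanog (0.0276), Pou5f1 (0.0901), Tdgf1 (0.0343), Cbx7 (0.0713), Phc1 (0.15), Neat1 (0.14) and Sox2 (0.0524), and with the GC adjustment that of Zfp42 turned to -0.0452. The ERCC scaling shifted CAPH2 #1 by 0.63 and CAPH2 #2 by -0.05, so with CAPH2 #2 the genes whose mean turned positive stayed below GFP. No paired analysis was possible because the GFP group has 1 library with no replicate number, so the groups share fewer than 2 numbers. With 1 control library, a change of the control cannot be told apart from a change in both knockdowns.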
